A study of Mus musculus with 2 samples.

Results

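The genes described here are the antisense noncoding RNA genes found above a minimum level in libraries of spleen neutrophils. Every annotated transcript of such a gene carries the biotype antisense, which GENCODE gives to a noncoding transcript that lies against, or was annotated in relation to, a gene on the opposite strand. A gene was chosen by its deposited TPM (a length-corrected level, scaled to the same total in each library), which had to be at least 0.5 in both libraries, and Gas5 and symbols starting with Snhg were left out. Of 55450 genes in the transcript table, 2948 had antisense transcripts alone, 2946 after the exclusions, and 167 of these passed the minimum. Snhg9 was the 1 gene that passed and was left out by name. TPM chose the members, so their levels are given as a description, with no test.

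Total RNA was sequenced from primary neutrophils isolated from the spleen of B6CASTF1/J mice, the F1 hybrids of a mother of strain C57BL/6 with a CAST/EiJ father. The animals were adult males aged 65 days. There was 1 group, with 2 libraries labelled biological replicates 1 and 2. Each started from 300 ng of RNA, to which ERCC spike-in RNA was added, and a directional kit kept the strand of each read. Both libraries carry 1 donor identifier, so part of their spread may be technical, and no comparison between conditions exists.

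An antisense RNA can act at its own locus, where its transcription or the RNA itself changes the gene on the other strand, as the imprinted Airn does at Igf2r in the mouse. Others act away from their locus, serve as host transcripts of microRNAs, or start from a promoter shared with a coding gene and have no known role. Most antisense RNAs are far less abundant than the messenger RNAs they lie against.

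The libraries held 18387963 (replicate 1) and 18090108 (replicate 2) expected counts in all, of which the members took 0.10% and 0.103%. Protein-coding genes held 32.8% of all TPM in replicate 1 and 45.4% in replicate 2, and 1 count on 1 kb of effective length stood for 0.0458 and 0.0538 TPM, so equal counts give a higher TPM in replicate 2. The 8 neutrophil markers were all detected at 1 TPM or more in both libraries and summed to 34779 and 69847 TPM. Markers of other cells summed to less. The 5 B-cell markers summed to 4.49 and 17.4 TPM, and 5 T-cell markers to 32.3 and 53.9. The 5 monocyte and macrophage markers summed to 101.7 and 137.1. The 4 erythroid markers summed to 44.1 and 113, and 4 endothelial and stromal markers to 61.8 and 65.0. Each of these sums was above the level of the median member, 1.39 TPM in replicate 1 and 1.59 TPM in replicate 2. None of these lists had a marker at 0 in both libraries, and 2 of 5, 1 of 5, 3 of 5, 2 of 4 and 2 of 4 of their markers, in that order, reached 1 TPM in both. The part of other cells in the members' levels was not tested.

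The highest member was F630028O10Rik (chrX:96239926-96243636, plus strand), whose exon holds the hairpin of miR-223, a microRNA known for its abundance in neutrophils and for restraining their production and activity in the mouse. It had 53.51 TPM in replicate 1 and 68.42 TPM in replicate 2, from 3272 and 3581 expected counts. It overlaps no annotated coding gene on either strand, so the name antisense does not describe its position in this annotation. The microRNA is shown because it is the known product of this transcript. Its mature arms, from RefSeq on GRCm38.p6, have the seed (bases 2 to 8) in capitals, and the hairpin (chrX:96242817-96242926) has both arms in capitals:
mmu-miR-223-3p: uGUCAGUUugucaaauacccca
mmu-miR-223-5p: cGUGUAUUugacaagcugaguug
Mir223 hairpin: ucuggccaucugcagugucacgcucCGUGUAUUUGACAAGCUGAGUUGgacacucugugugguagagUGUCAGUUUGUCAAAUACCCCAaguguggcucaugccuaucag

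The Mir223 entry itself was listed at 0 TPM in both libraries, and these tables do not measure mature microRNAs. The deposited interval of the TPM estimate (a credibility interval of the posterior mean, at a level not given in the sources used here) ran from 50.1 to 53.7 in replicate 1 and from 63.8 to 68.2 in replicate 2. The TPM of 68.42 in replicate 2 lies above its own interval, so the interval is not centred on the deposited TPM; the TPM lay outside its interval in 1 member in each library. The intervals of the libraries did not overlap, but the counts differed by a log2 ratio of only -0.11 (replicate 1 over replicate 2) after TMM scaling. The promoter of F630028O10Rik (RefSeq, GRCm38.p6, chrX:96239676-96239975, plus strand, 250 bases before to 50 after the start) is shown because miR-223 transcription is known to depend on the myeloid factors PU.1 and C/EBP. Capitals mark GAGGAA, a core of PU.1 sites, on either strand:
F630028O10Rik promoter: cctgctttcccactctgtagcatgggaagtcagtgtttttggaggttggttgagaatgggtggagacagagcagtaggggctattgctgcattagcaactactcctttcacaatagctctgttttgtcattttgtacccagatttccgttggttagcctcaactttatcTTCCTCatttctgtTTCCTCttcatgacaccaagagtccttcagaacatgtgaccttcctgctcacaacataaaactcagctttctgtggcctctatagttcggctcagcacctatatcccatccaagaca

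It holds 2 such matches, no match to the C/EBP motif TTNNGCAA, and 2 CpG dinucleotides at 45.3% GC. GAGGAA stands in 28.3% of all 32851 promoters of the table and in 34.8% of the 92 promoters found for 62 members, so a match is common and is no evidence of binding.

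Mirt2, a transcript described in mouse macrophages as induced by lipopolysaccharide and as a brake on inflammatory signalling, was next, with 47.0 TPM in replicate 1 and 50.28 TPM in replicate 2. It lies against Spatc1, a gene known from sperm, which had 0.46 and 0.21 TPM. Tug1, a conserved and widely expressed long noncoding RNA, had 45.55 and 51.65 TPM. Mirt2 and Tug1 did not differ beyond their spread, and F630028O10Rik stood above both in each library by RSEM. By kallisto, the second quantification described below, F630028O10Rik had 42.71 and 57.74 TPM, Mirt2 46.69 and 47.78, and Tug1 47.11 and 53.75. There F630028O10Rik was below both in replicate 1 and above both in replicate 2. Tug1 starts against Morc2a, a chromatin regulator, which had 6.8 and 6.16 TPM in the same libraries. The antisense gene was therefore the higher of this pair by log2 ratios of 2.73 and 3.05. No Tug1 isoform held most of the level: by RSEM the highest was Tug1-202 in replicate 1 (33.1%) and Tug1-205 in replicate 2 (26.3%), and by kallisto Tug1-205 in both (33.8% and 32.9%). Its promoter is shown for the contrast in base composition with that of F630028O10Rik (RefSeq, GRCm38.p6, chr11:3648765-3649064, minus strand). The RefSeq start lies inside the GENCODE gene: Tug1-205 and Tug1-204 are annotated to start further upstream, at 3649673 and 3649042, so the window is not the promoter of Tug1-205. The promoter has 37 CpG dinucleotides at 71.3% GC, and none of the motifs searched here:
Tug1 promoter: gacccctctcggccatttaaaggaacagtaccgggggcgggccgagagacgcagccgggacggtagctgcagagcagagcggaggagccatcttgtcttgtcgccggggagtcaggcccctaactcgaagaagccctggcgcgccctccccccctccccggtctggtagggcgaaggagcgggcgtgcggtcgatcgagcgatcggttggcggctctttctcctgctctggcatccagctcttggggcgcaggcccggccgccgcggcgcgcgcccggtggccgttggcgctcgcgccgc

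Gm28192 had 36.17 TPM in replicate 1 and 33.03 TPM in replicate 2, against 47.14 and 63.53 TPM for Csnk1d, the casein kinase 1 delta gene it overlaps. Rab10os had 22.11 and 27.55 TPM and lies against the end of Rab10, a small GTPase of membrane traffic, with 11.91 and 15.48 TPM. After these 5 the levels dropped: Gm35853, against the keratin gene Krt80, had 9.37 and 17.69 TPM. 1600010M07Rik, against the importin gene Ipo7, had 7.97 and 18.38 TPM. The last 3 of the highest 10 were Gm26982 (11.73 and 8.3 TPM), Gm15265 (8.21 and 10.69 TPM) and Gm45894 (9.15 and 7.44 TPM), and from Gm35853 downward neighbours in the order overlapped in their ranges. Rab10os could be told from Gm35853 in both libraries by the deposited intervals, and Gm28192 from Rab10os in replicate 1 alone.

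**Figure D1:**
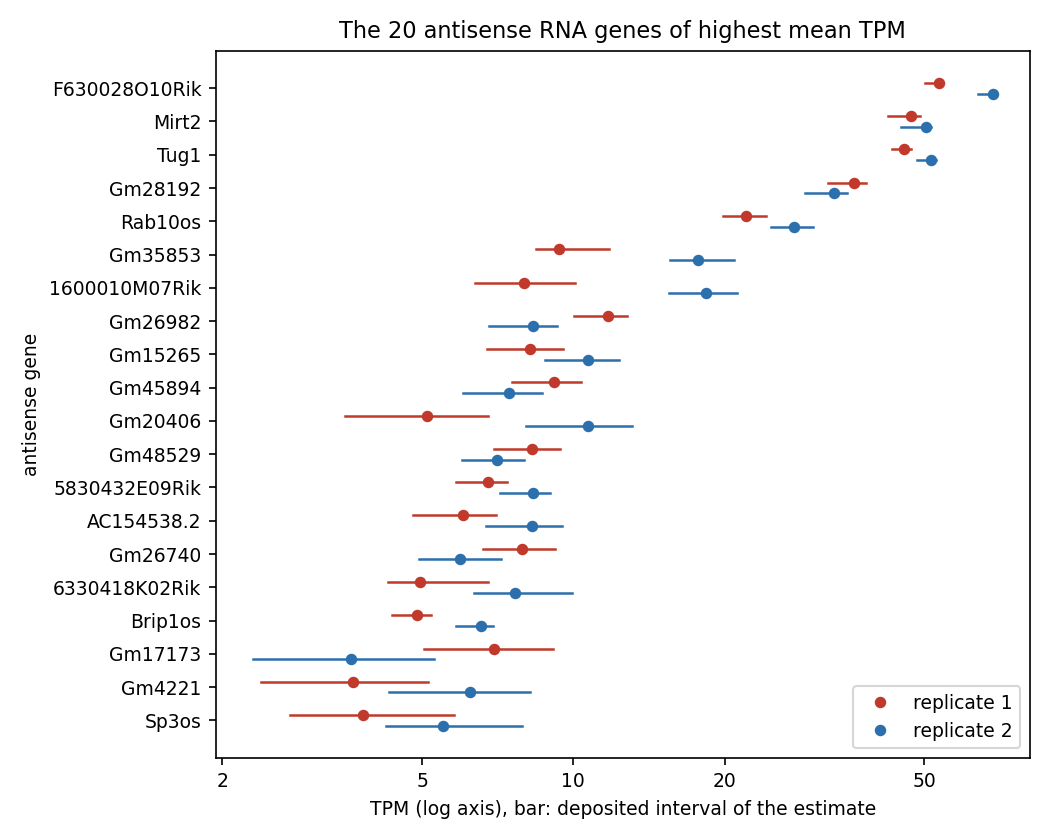
TPM on a log axis of the 20 antisense genes of highest mean TPM, with replicate 1 in red above replicate 2 in blue; points are the deposited TPM and bars the deposited interval of the posterior mean. F630028O10Rik leads at 53.51 and 68.42 TPM, and Mirt2 and Tug1 lie between 45.55 and 51.65 TPM.

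A few genes carried much of the signal. The 3 highest members held 43.0% and 43.8% of the members' counts, and the 10 highest held 56.7% and 58.1%. The median member had 1.39 TPM in replicate 1 and 1.59 TPM in replicate 2, with 30 counts in each library. The mean of both libraries was 10 TPM or more in 8 members and under 1 TPM in 50. Of the 2946 antisense genes, 5.67% passed the minimum, against 3.63% of 5844 long intergenic noncoding genes, 11.3% of 432 processed transcript genes and 47.2% of 21951 protein-coding genes. Past the minimum, the median of the mean TPM was 1.56 for antisense genes, 1.96 for long intergenic, 1.70 for processed transcript and 10.4 for protein-coding genes. Of the antisense genes, 2111 had no count in either library. A count of 0 allows up to 3 counts, so genes of low level cannot be told from silent ones at this depth.

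**Figure D2:**
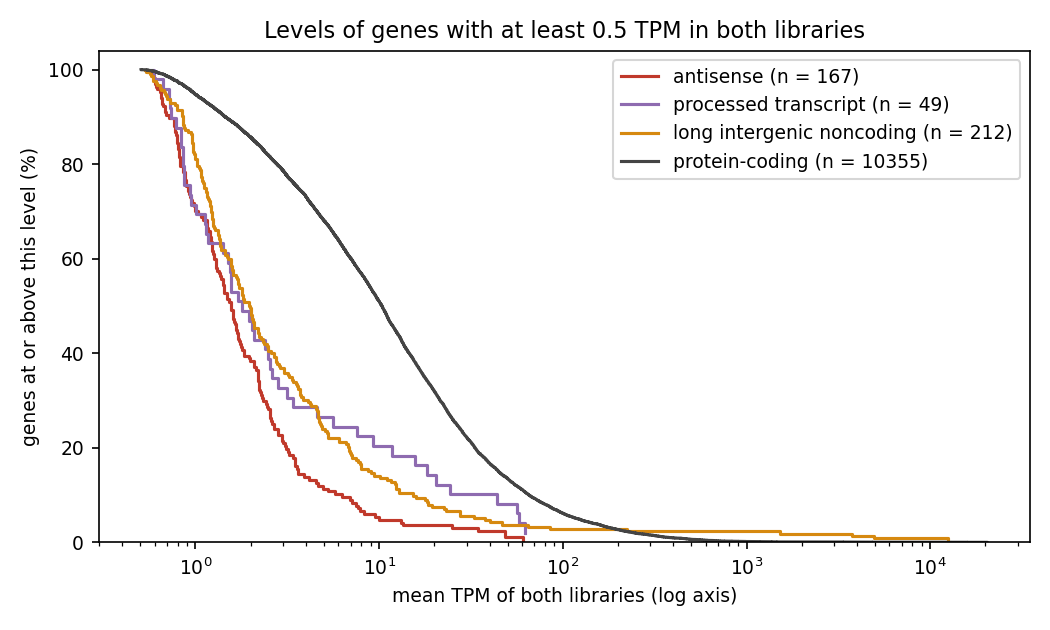
Share of genes (%) at or above a mean TPM (log axis), for genes with at least 0.5 TPM in both libraries, by class. The curve of the 167 antisense genes lies far left of that of the 10355 protein-coding genes, with medians of 1.56 and 10.4 TPM.

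Just inside the minimum stood Gm17110 (0.51 and 1.02 TPM), E430024P14Rik (0.57 and 0.52) and Gm6288 (0.56 and 0.52). Just outside stood Gm16587 (0.84 and 0.49 TPM), 1810013D15Rik (0.64 and 0.49) and Gm44623 (1.24 and 0.48). These genes rested on 3 to 20.1 counts a library, and 26 of the 167 members had fewer than 10 counts in at least 1 library. In 118 members the lower bound of the deposited interval was at or above 0.5 TPM in both libraries. A further 87 antisense genes passed in only 1 library, 41 of them in replicate 1 and 46 in replicate 2.

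The symbols of 14 members name a coding gene, and the antisense gene was the lower of the pair in both libraries in 10 and the higher in both in 3. Levels are compared as log2((antisense TPM + 0.1)/(coding TPM + 0.1)). The median over the 14 pairs was -3.02. The antisense level was fixed from below by the rule, so this is a description of these pairs. Of 2572 antisense genes under the minimum, 67.9% were below their overlapping coding gene in both libraries, 39 genes were above it in both, and 787 were neither. These genes were set apart by a low level, so their share is no reference for the members. The coding partners ranged from 0.105 TPM for Rab26 to 321 TPM for Jun.

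Rab10os was the only abundant member of the 3 that exceeded their partner. Its ratios to Rab10 were 0.89 in replicate 1 and 0.83 in replicate 2, from 941 and 1082 counts for Rab10os and 887 and 981 counts for Rab10. Only 143 exonic bases lie against Rab10 exons, and its start lies far from that of Rab10. The Rab10os promoter (RefSeq, GRCm38.p6, chr12:3235541-3235840, plus strand) is CpG-rich, with 39 CpG dinucleotides at 67.3% GC. It is shown because Rab10os was the 1 abundant antisense RNA above its named partner. The window lies inside the GENCODE gene, which starts at 3235504 and has 7 transcripts. It is therefore not shown to be the promoter of a measured isoform. Capitals mark 1 match to GAGGAA and 1 to TGANNTCA, an octamer that includes sites of ATF and Jun proteins, each searched on both strands:
Rab10os promoter: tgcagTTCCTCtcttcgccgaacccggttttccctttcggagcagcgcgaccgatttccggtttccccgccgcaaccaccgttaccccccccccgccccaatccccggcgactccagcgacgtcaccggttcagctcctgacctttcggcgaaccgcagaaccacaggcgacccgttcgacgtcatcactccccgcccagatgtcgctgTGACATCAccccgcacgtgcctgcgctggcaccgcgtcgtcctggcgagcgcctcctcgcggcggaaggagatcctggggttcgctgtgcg

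Rab26os had 2.24 and 2.29 TPM against 0.12 and 0.09 TPM for Rab26, another Rab GTPase gene, but from only 13 counts in each library. By kallisto it had 1.23 and 0.484 TPM, and the mean log2 ratio to Rab26 was 1.61, against 3.53 by RSEM. The exon of Rab26os also holds the small nucleolar RNA Snord60, itself listed at 0, and the start of Rab26os lies 310 nt from that of Traf7. Lrrc75aos2 had 1.14 and 2.14 TPM against 0.78 and 1.2 TPM for Lrrc75a. Brip1os had 4.89 and 6.55 TPM, against 6.1 and 2.71 TPM for Brip1, a DNA helicase gene that acts with BRCA1, so the order of this pair differed between the libraries.

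The other 10 were all below their partner. Zfp335os had 3.35 and 3.61 TPM against 11.56 and 14.27 TPM for the zinc finger gene Zfp335. Bcas3os1 had 1.67 and 2.77 TPM against 13.34 and 13.28 for Bcas3, and Tmem147os had 0.78 and 1.73 TPM against 5.44 and 10.34 for Tmem147, a membrane protein gene. Zbtb11os1, Sp3os, Runx2os2, Hk1os and Runx2os1 followed, with mean log2 ratios of -3.46, -3.71, -3.98, -4.50 and -4.94. Their partners are the transcription factors Zbtb11, Sp3 and Runx2 and the glycolytic enzyme hexokinase 1. Both Runx2 antisense genes passed the minimum, Runx2os2 at 1.09 and 1.5 TPM and Runx2os1 at 0.6 and 0.62 TPM. Runx2 had 20.54 and 22.93 TPM. Runx2os1 rested on only 9 and 8 counts, and its deposited intervals began at 0.278 and 0.275 TPM, below the minimum. Of its 792 exonic bases, 519 lie against Runx2 exons.

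The lowest ratios of the 14 were those of Junos and Il1bos. Junos had 2.57 TPM in replicate 1 and 2.31 TPM in replicate 2, against 190.25 and 452.57 TPM for Jun, the AP-1 subunit and immediate-early gene. The deposited intervals of Junos overlapped between the libraries (log2 ratio of scaled counts 0.45, from 34 and 25 counts), while Jun was lower in replicate 1 than in replicate 2 (log2 ratio -1.0). The difference between these ratios was not tested. Junos has 8 annotated transcripts with starts spread over the locus, and none led throughout. By kallisto the highest was Junos-206 in replicate 1 (23.0% of the level) and Junos-204 in replicate 2 (29.1%), and by RSEM Junos-203 (27.1%) and Junos-205 (29.3%). The RefSeq promoter nearest to Jun shares 194 bases with the promoter of Jun, but no GENCODE transcript of Junos starts in that window. The nearest annotated starts are at 95051534 and 95052951, so the window is not shown to be the promoter of a measured isoform. The stretch before the start of Jun is shown on the Junos strand (GRCm38.p6, chr4:95052223-95052366), with 1 match to TGANNTCA in capitals:
Junos and Jun shared stretch: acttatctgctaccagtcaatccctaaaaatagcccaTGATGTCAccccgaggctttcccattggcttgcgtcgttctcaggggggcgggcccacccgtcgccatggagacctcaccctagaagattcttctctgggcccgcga

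Il1bos had 0.86 and 0.96 TPM, against 201.66 and 355.48 TPM for Il1b, the gene of the inflammatory cytokine interleukin-1 beta. The mean log2 ratio was -8.05 ± 0.48 (SD, n = 2), the lowest of the 14. Il1bos (chr2:129369897-129375748, plus strand) starts inside Il1b and runs out past its start. Of its 2980 exonic bases, 25 lie against an annotated Il1b exon and none against Il1b coding sequence, and its 39 and 34 counts were whole numbers. Its promoter (RefSeq, GRCm38.p6, chr2:129369652-129369951, plus strand) lies within Il1b, has 2 CpG dinucleotides at 46.0% GC, and held none of the motifs searched:
Il1bos promoter: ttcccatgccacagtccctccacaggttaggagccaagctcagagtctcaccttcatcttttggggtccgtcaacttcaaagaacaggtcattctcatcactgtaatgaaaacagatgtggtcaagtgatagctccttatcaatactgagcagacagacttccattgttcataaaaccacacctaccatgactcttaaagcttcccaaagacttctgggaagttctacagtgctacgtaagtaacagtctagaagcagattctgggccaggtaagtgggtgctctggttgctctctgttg

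**Figure D3:**
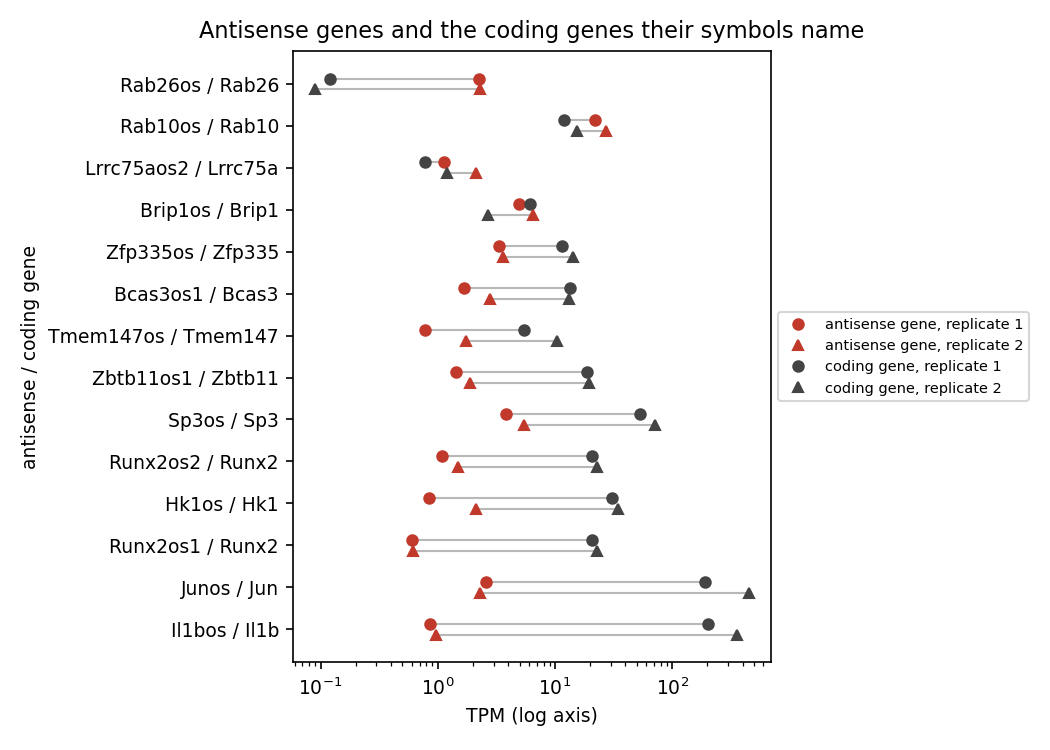
TPM (log axis) of the 14 antisense genes whose symbol names a coding gene (red) and of that coding gene (grey), with circles for replicate 1 and triangles for replicate 2, from the highest to the lowest ratio. The antisense point lies to the right in both libraries for Rab26os, Rab10os and Lrrc75aos2, and to the left in both for 10 pairs.

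By position, 147 of the 167 members (88.0%) overlapped a coding gene on the opposite strand, against 92.6% of the 2779 antisense genes under the minimum. The start of 66 members (39.5%) lay within 1000 nt of the start of a coding gene on the opposite strand, a head-to-head arrangement found in 555 of the 2779 antisense genes under the minimum. In 44 of these 66 the genes overlapped at their starts or met there, and in 22 a gap lay between them. Of the rest, 86 overlapped a coding gene elsewhere, 9 lay only within a coding gene on their own strand, and 6 had no overlapping or head-to-head coding gene. The 6 are F630028O10Rik, Gm14286, BC018473, Gm14154, 4930430E12Rik and Gm13201. Of the 9, Gm12981 lies within Sesn2 and had 4.48 and 3.3 TPM. There the strand of a read does not tell this gene from Sesn2. Some of the 86 also overlap a coding gene on their own strand, where the same limit holds. Among them are Gm45894 and Gm20406 at Gm20388, and 4930570N18Rik at Lamb3. All annotated transcripts had a single exon in 31 members (18.6%) and in 156 of the antisense genes under the minimum (5.61%). The position of a gene was not used to choose members, but no test was made.

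The coding genes opposite the members were themselves mostly expressed. At the 147 overlapping loci 112 partners (76.2%) passed 0.5 TPM in both libraries, against 1300 of 2572 (50.5%) opposite antisense genes under the minimum. At the head-to-head loci the shares were 61 of 66 (92.4%) and 325 of 555 (58.6%). The median partner had a mean of 13.4 TPM at overlapping and 16.7 TPM at head-to-head loci of members, against 0.750 and 2.36 TPM for antisense genes under the minimum. Members were below the overlapping partner in both libraries in 98 of 147 pairs (66.7%) and above it in both in 43, with a median log2 ratio of -2.57. For the head-to-head partner the counts were 58 below and 5 above among 66, with a median of -3.45.

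The pairs at the upper end, taking the coding gene of longest overlap, held antisense genes against coding genes of very low level. After Mirt2 and Spatc1 (mean log2 ratio 6.87) came Sp3os against the predicted gene Gm11084, which was listed at 0 in both libraries. No exonic base of Sp3os lies against Gm11084, and Sp3os also overlaps Sp3, at 52.92 and 71.24 TPM, where its mean ratio was -3.71. 6330418K02Rik had 4.95 and 7.65 TPM against 0 and 0.11 for the sulfotransferase gene Gal3st4. It also starts 10 nt from BC037034, which had 41.86 and 56.06 TPM, and there its mean ratio was -2.96. AC154538.2 had 6.02 and 8.26 TPM against 0.06 and 0.28 for Dscam, a neuronal adhesion gene. Trmt61b, here an antisense gene, had 2.66 and 2.48 TPM against Spdya, listed at 0.

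At the lower end the 5 partners had means of 169 to 795 TPM. Gm20632 had 0.95 and 0.67 TPM against 578.19 and 1011.37 TPM for the histone gene Hist2h2aa2, and Gm20628 had 0.84 and 1.68 TPM against 445.91 and 715.45 TPM for Hist2h3b. These genes lie in 1 histone cluster of near-identical copies, and the counts of Gm20632 (48.4 and 28.8) were not whole, so reads may be split between copies. Of the 2427 exonic bases of Gm20632, 528 lie against Hist2h2aa2 exons, which had 5398 and 8040 counts. For Gm20628, 488 of 3215 lie against Hist2h3b exons, which had 3774 and 5156 counts. Whether the counts of these 2 antisense genes include histone reads assigned to the wrong strand was not tested. Il1bos followed, then 4930539J05Rik with 0.54 and 0.99 TPM against 204.72 and 232.85 TPM for the ubiquitin-conjugating enzyme gene Ube2d3. Gm14966 had 0.81 and 1.49 TPM against 152.59 and 184.99 TPM for the kinase gene Map4k2. Among head-to-head pairs, Gm4285 had 2.57 and 2.55 TPM and starts 129 nt from Tpt1, a highly expressed gene of a tumour-associated protein linked to translation, with 455.67 and 797.19 TPM.

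**Figure D4:**
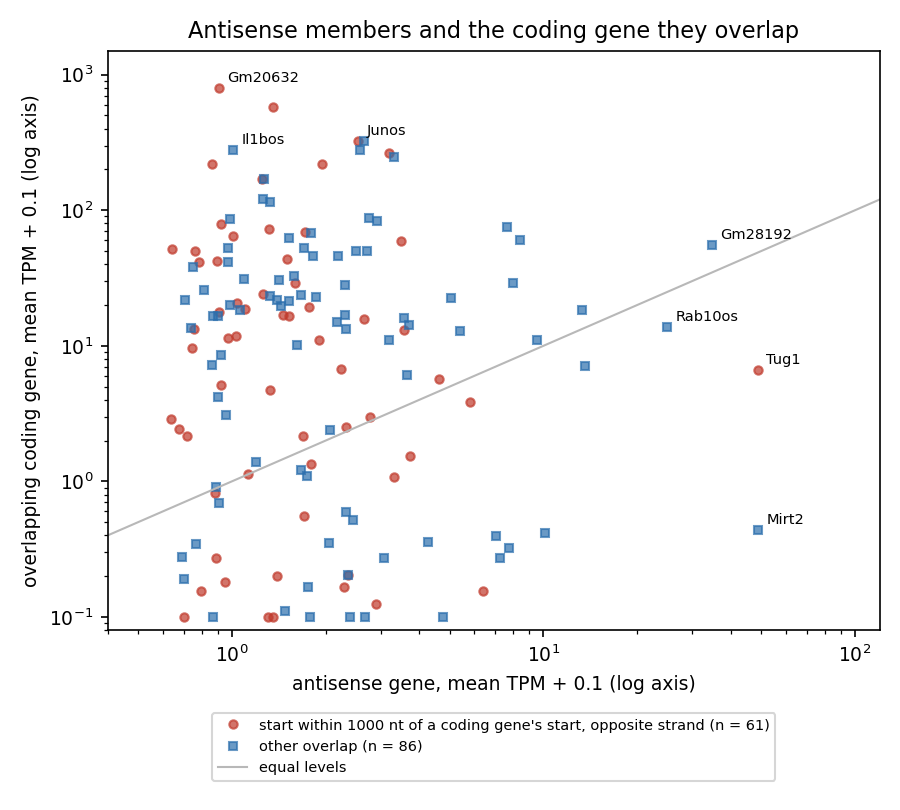
Mean TPM + 0.1 (log axes) of 147 antisense members against the coding gene they overlap, in red circles where the antisense start lies within 1000 nt of a coding start on the opposite strand and in blue squares elsewhere; the line marks equal levels. Most points lie above the line, and Mirt2, Tug1 and Rab10os lie below it.

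Promoter sequences differed with arrangement. RefSeq promoters were found for 25 head-to-head members (33 promoters) and 37 other members (59 promoters), since a gene can have several. The median GC content was 61.0% and 54.3%, and the ratio of observed to expected CpG was above 0.6 in 60.6% and 32.2%. Over all 32851 promoters it was above 0.6 in 35.8%, and over 1200 promoters of antisense genes under the minimum in 20.6%. GAGGAA (PU.1) was in 34.8% of members' promoters, 27.3% of those head to head and 39.0% of the others, against 28.3% of all promoters. Matches to the other motifs, on both strands, were near their share in all promoters. TTNNGCAA (C/EBP) was in 8.70% of members' promoters and 10.8% of all, TGANTCA (AP-1) in 6.52% and 7.81%, and TGANNTCA (ATF and Jun) in 15.2% and 14.1%. TATAAA was in 10.9% and 13.6%. These matches are letters in a window and no evidence of a site.

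Of 83 genes in 4 lists of neutrophil and myeloid genes, 3 (3.61%) had an antisense member on the opposite strand. The share was 199 of all 21951 protein-coding genes (0.907%) and 134 of the 10355 past the minimum (1.29%). The listed genes were not filtered by TPM and were chosen with earlier results of these data known, so the shares are no test. None of 32 neutrophil effector genes had one, and only Il1r2 and Mpo have an antisense gene annotated there, Gm16894 at 0.31 and 0.29 TPM and Gm11505 listed at 0. Of 21 inflammatory and NF-kB genes only Il1b had a member, and of 7 survival genes none. Of 23 myeloid and immediate-early transcription factors, Jun and Jund had one. Cebpa and Runx1 have annotated antisense genes that did not pass, Gm45091 at 0.11 and 0.27 TPM and Gm26626 at 0.72 and 0.31 TPM. Gm11175, the member at Jund, another AP-1 subunit gene, had 1.97 and 3.14 TPM, against 244 and 400.26 TPM for Jund.

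All 877 exonic bases of Gm11175 lie against Jund coding sequence, so this gene is sensitive to reads assigned to the wrong strand. Its level was 0.807% and 0.784% of that of Jund. Across 9 antisense genes with at least 90% of their exonic bases against coding exons of a partner of 50 TPM or more, 5 had no count in either library, and the highest share was 0.807% in replicate 1 and 1.36% in replicate 2. Gm11175 is the only member of these 9. Whether its 16 and 21 counts are antisense RNA or a small share of Jund reads on the other strand was not tested.

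Among 20 well-studied antisense and related RNA genes, 8 had antisense transcripts alone and only Airn was a member. Airn had 1.65 and 1.39 TPM from 27 and 16 counts, against 8.92 and 11.28 TPM for Igf2r, the receptor gene it silences on the paternal chromosome in many mouse tissues; the tables do not separate the alleles of these F1 mice. Kcnq1ot1, a very long imprinted antisense RNA, had 811 and 570 counts but 0.4 and 0.33 TPM, and so stayed below a minimum set per length. Tsix had 0.26 and 0.26 TPM, and Wt1os had no count. Zfas1 and Zeb2os are antisense genes in name but also have transcripts of other biotypes, and had 12.26 and 19.17 TPM and 3.75 and 6.73 TPM.

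The libraries gave similar levels for most members. Over 2-fold differences in scaled counts were found in 7 of 167 members (4.19%), 3 higher in replicate 1 and 4 in replicate 2, against 4.36% of all 12444 genes past the minimum. All 7 had fewer than 100 counts in at least 1 library, where the share over all genes was 11.9%. None of the 25 members with at least 100 counts in both differed that much, against 1.09% of all such genes. The 5 largest differences were those of Gm11455 (26 and 11 counts), Gm48747 (13 and 31), Hk1os (7 and 16), Gm15417 (37 and 17) and Gm14703 (36 and 78). 1600010M07Rik, with 82 and 170 counts, was the most abundant of the 7. Deposited TPM intervals of the libraries were apart in 17 members, 14 of them higher in replicate 2, against 29.6% of all genes past the minimum. On scaled counts the balance was the other way, with 94 of the 167 members higher in replicate 1 and 73 in replicate 2. Their median log2 ratio was 0.09, against -0.01 for all genes past the minimum. The split by direction over all genes is not given here, for counts or for intervals. Tug1, 1 of the 14 with the higher interval in replicate 2, had a log2 ratio of 0.02. Levels of the members correlated between the libraries at r = 0.927 on the log2 scale and rho = 0.865, a description across 167 genes. Both were higher over all genes past the minimum, at 0.976 and 0.975. The median absolute log2 ratio between the libraries was 0.32 for members and 0.2 for all these genes.

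The deposited tables hold a second quantification, of kallisto layout, which was made directly from the reads. It was over 2-fold apart from the RSEM-layout gene table in both libraries in 8 members (4.79%), against 5.23% of all genes past the minimum. Of the 8, 6 were higher by kallisto, against 1.69% of all genes, and 2 higher by RSEM, against 3.54%. Gm20400 had 22.3 and 19.0 TPM by kallisto and 3.0 and 5.34 by RSEM, and Gm11399 had 7.07 and 6.73 TPM by kallisto and 1.23 and 1.44 by RSEM. Gm28809, which lies against the tetraspanin gene Cd9, had 2.64 and 4.38 TPM by kallisto and 0.82 and 1.5 by RSEM. 2900060B14Rik and Gm12236 were lower by kallisto. 2900060B14Rik had 0.543 and 0.975 TPM by kallisto and 2.22 and 3.03 by RSEM. Gm12236 had 0 and 0.623 TPM by kallisto, and 1.22 and 2.15 by RSEM from 4 and 6 counts.

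Of the 2779 antisense genes under the minimum, 334 were over 2-fold higher by kallisto in both libraries and 3 higher by RSEM. These genes were set apart by a low RSEM level, which leaves more room above it than below, so these shares are no test against the members. With kallisto TPM of at least 0.5 in both libraries, 325 antisense genes would pass, among them 156 of the 167 members (93.4% of the members, 48.0% of the 325). Of the other 169, 78 had no RSEM count in either library and 9 had a mean of 10 kallisto TPM or more. Gm48765 had 81.2 and 60.7 TPM by kallisto and 0 and 0.02 TPM by RSEM, and Gm47738 had 40.8 and 37.9 TPM by kallisto and 0.05 and 0 by RSEM. Of the 169 genes, 79 had no exonic base against an opposite coding exon, against 46 of the 167 members.

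**Figure D5:**
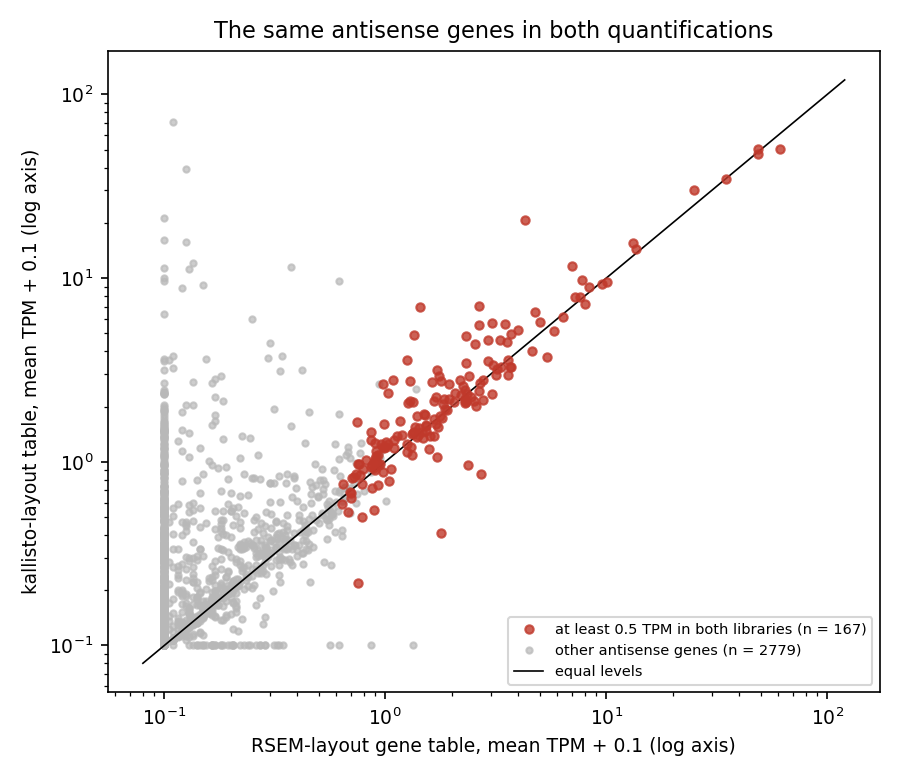
Mean TPM + 0.1 (log axes) of all 2946 antisense genes in the RSEM-layout gene table (x) and the kallisto-layout table (y), with the 167 members in red and the rest in grey; the line marks equal levels. Members follow the line with 8 apart by over 2-fold in both libraries, while a column of grey points near 0 by RSEM reaches high kallisto levels.

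Most members were counted from reads assigned to 1 gene only. Expected counts were within 0.005 of a whole number in both libraries in 157 of 167 members (94.0%), against 81.2% of all genes past the minimum. The 10 others include Mirt2, Tug1, Tmem147os, Gm20632 and Gm20633. In 121 members exons lay against exons of an opposite coding gene, and 111 of these had whole counts. Small RNA genes lay on the strand of 9 member genes in all, among them Mir135a-1 within D030055H07Rik, Mir1941 within Gm35853 and Mir7649 in an exon of Gm15987, and each small RNA entry was listed at 0.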

How the data were processed

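Each library came with 3 deposited tables, on mm10 with GENCODE M21, per the file headers and accompanying notes. The authors derived the gene table and a transcript table of RSEM layout from transcriptome alignments, with expected counts, TPM and FPKM. The deposited gene table also gives other values, interval bounds of the posterior mean TPM. The authors made the kallisto-layout transcript table, with estimated counts and TPM, directly from the FASTQ files. The sources used here give no program, version, aligner or strand setting.

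Genes, biotypes and symbols came from the transcript table and positions from GENCODE M21. The members and gene lists were chosen with earlier results of these data known. Pairs were formed by symbol and by the longest overlap on the opposite strand. Ratios of levels used log2(TPM + 0.1). Library ratios used expected counts, rounded to estimate TMM factors with edgeR 4.0.16 (R 4.3.3), with 0.5 added, and a difference past 2-fold was called. DESeq2 1.42.0 size factors were an alternative. The library ratio was checked on simulated data. Nothing else was modelled, and no test between conditions exists. Named genes were the 10 highest members, those named for a coding gene, the 5 largest differences between libraries and between quantifications, the genes nearest the minimum, and the 5 highest and 5 lowest pair ratios. A few others, such as Tug1 isoforms, Gm12981, Gm4285, Gm48765, Gm47738 and the hosts of small RNAs, were chosen after their values were seen. Promoters and microRNAs came from RefSeq tables on GRCm38.p6, matched by symbol. Limits from counts cover counting error alone, and without molecular identifiers a read does not stand for 1 molecule.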

Additional observations from a re-analysis of the deposited data

How the results depend on the processing

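The members are set by the minimum. At 1 TPM 102 genes passed, with no TPM minimum but at least 1 count in both libraries 521, and by kallisto TPM 325; on 1 library alone 208 to 213 passed. The median level was 1.84 TPM by kallisto, 4.04 TPM rescaled over protein-coding and antisense genes, 0.910 TPM at a minimum of 0.25, 2.28 TPM at a minimum of 1, and 1.15 to 1.26 TPM on 1 library alone. Of the pairs by symbol, 10 had the antisense gene lower in both libraries under both other pseudocounts and by kallisto, 10 to 11 on 1 library alone, 6 at a minimum of 1 TPM (fewer pairs), and 98 when pairs were formed by overlap (more pairs). The mean log2 ratio of Brip1os to Brip1 was 0.46, but -0.04 by kallisto, and ranged from -0.31 to 1.24 over the single libraries; no other pair changed sign. Library differences past 2-fold numbered 12 by the TPM ratio, and 57 of 302 antisense genes when at least 10 counts in all replaced the TPM minimum. Differences between quantifications numbered 21 at 1.5-fold, 1 at 4-fold, 3 with a pseudocount of 1, and 15 to 16 on 1 library alone. The share over all genes at these other settings is not given here. These counts of differences therefore describe the settings and are no result about antisense genes. In all, 15 of 33 alternatives stayed within 1.5 times the count, or within the spread of the level. No paired analysis was possible because there is only 1 group. Depth limits most members: 142 of 167 had fewer than 100 counts in at least 1 library.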

Other observations

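Antisense transcripts also belong to genes that have transcripts of other biotypes. Of 143 such genes 22 passed 0.5 TPM in both libraries, the highest being 3110056K07Rik with 15.52 and 16.9 TPM, Zfas1, and 2310009A05Rik with 6.97 and 11.9 TPM. Of the antisense genes that passed in 1 library only, Gm47551 had the highest level in a single library, with 0 and 2.48 TPM, which rested on 0 and 3 counts. Gm11772 had 0.32 and 2.24 TPM from 3 and 18 counts, and AC165951.2 had 1.42 and 0.27 TPM from 37 and 6 counts.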
